A study of Mus musculus with 6 samples.

Results

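The Ikaros family consists of 5 mouse genes, Ikzf1, Ikzf2, Ikzf3, Ikzf4 and Ikzf5, out of the 22367 protein-coding genes of the GENCODE M1 annotation on the autosomes, X and Y. They were taken by name, and each was read over its gene body with 20 kb added on either side, on the mouse assembly mm9. Ikzf1 (ENSMUSG00000018654.10) lies on the plus strand at chr11:11585006-11672929, Ikzf2 (ENSMUSG00000025997.7) on the minus strand at chr1:69577788-69732534, and Ikzf3 (ENSMUSG00000018168.8) on the minus strand at chr11:98326216-98407345. Ikzf4 (ENSMUSG00000002578.8) lies on the minus strand at chr10:128067899-128083047 and Ikzf5 (ENSMUSG00000040167.9) on the minus strand at chr7:138532166-138554035. With the flanks, the windows were 127.9 kb for Ikzf1, 194.7 kb for Ikzf2, 121.1 kb for Ikzf3, 55.15 kb for Ikzf4 and 61.87 kb for Ikzf5, so counts of peaks were compared beside the share of each window that the peaks covered.

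Ikaros family proteins are zinc finger transcription factors, in which a group of fingers near the N-terminus binds DNA and a pair at the C-terminus joins family members into dimers. Ikzf1 encodes Ikaros and Ikzf3 encodes Aiolos, which act in developing lymphocytes and take part in the step from dividing pre-B cells to small pre-B cells that rearrange light chain genes. Ikzf2 encodes Helios and Ikzf4 encodes Eos, both best known from regulatory T cells, and Ikzf5 encodes Pegasus, the most divergent member. Ikaros recruits chromatin complexes such as NuRD, and recognises DNA with the core letters TGGGAA.

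Chromatin of pre-B cells was profiled by ChIP-seq, in which DNA bound to a protein or a modified histone is pulled down with an antibody and sequenced, as part of a study of the chromatin features that accompany Vκ gene rearrangement. The pre-B cells came from C57BL/6 mice that lacked RAG and carried a rearranged µ heavy chain transgene (RAG-/- µ+), a genotype shared by every library, so they cannot rearrange light chain genes. The mice were 6 to 14 weeks old and of both sexes, and bone marrow and spleen are named as the source of cells. There was 1 library each for H3K27ac, a mark of active enhancers and promoters, for H3K4me3, a mark of active promoters, and for Pax5, the factor that commits cells to the B lineage. The 3 input samples were not analysed here, no group was compared with another, and no value below has a replicate check. The H3K27ac list holds 69345 peaks with scores from 3.06 to 330.0 and a median of 8.52. The Pax5 list holds 15445 peaks with scores from 87.9 to 3214 and a median of 207.5, whereas H3K4me3 was deposited as 782636 unscored bins of 25 bp, which were joined across gaps of up to 100 bp into 17979 regions. The lists carry no read counts, so depth is unknown, a gene without a peak is only a gene without a peak in that list, and a score ranks peaks only within its own list. RNA was not measured in these libraries, and neither was the binding of Ikaros proteins.

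All 5 B cell marker genes looked up (Cd79a, Cd79b, Blnk, Ebf1 and Vpreb1) had all 3 lists within 1000 bp of an annotated start, as did 34.9% of all protein-coding genes. None of the 5 T cell, 5 myeloid and 4 erythroid markers reported here had a promoter Pax5 peak (background 38.1%). An H3K27ac peak lay at the promoter of 1 of 5 T cell markers (Lck, score 34.9), 4 of 5 myeloid markers (Csf1r, Csf3r, Itgam and Mpo, with highest scores of 8.01 to 15.7) and 3 of 4 erythroid markers (Hbb-b1 at 33.4, Klf1 at 14.1 and Epor at 9.75), while Cd3e, Cd3g, Cd4, Zap70, Elane and Gata1 had none, against a background of 49.0%. H3K4me3 lay at the promoter of 1 T cell, 2 myeloid and 2 erythroid markers (background 53.0%). The part of other cells in the H3K27ac values below was not tested.

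The 5 promoters differed in sequence. The 75 bases just upstream of the outermost annotated start of each gene are shown 5′ to 3′ on the strand of the gene, from mm9, with each CpG dinucleotide in capitals, because CpG-rich promoters are the usual place of H3K4me3.
Ikzf1 (chr11:11584931-11585005, +): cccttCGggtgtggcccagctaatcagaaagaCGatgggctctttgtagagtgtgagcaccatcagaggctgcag
Ikzf2 (chr1:69732535-69732609, -): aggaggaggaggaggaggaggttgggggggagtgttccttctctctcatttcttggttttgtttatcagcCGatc
Ikzf3 (chr11:98407346-98407420, -): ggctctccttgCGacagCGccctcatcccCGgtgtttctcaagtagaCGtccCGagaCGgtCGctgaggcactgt
Ikzf4 (chr10:128083048-128083122, -): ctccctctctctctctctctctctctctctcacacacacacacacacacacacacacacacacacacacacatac
Ikzf5 (chr7:138554036-138554110, -): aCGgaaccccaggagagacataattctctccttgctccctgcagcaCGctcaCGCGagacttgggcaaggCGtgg
Ikzf3 and Ikzf5 held 7 and 5 CpGs in these letters, Ikzf1 held 2, Ikzf2 held 1, and Ikzf4 held 0 in a run of CT and CA repeats.

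Over 1001 bp centred on the outermost start, the ratio of CpGs seen to CpGs expected from the base composition was 0.91 at Ikzf3 (75 CpGs) and 0.79 at Ikzf5 (81 CpGs), against a median of 0.55 over all protein-coding genes. It was 0.47 at Ikzf1 (41 CpGs), 0.44 at Ikzf4 (37 CpGs) and 0.40 at Ikzf2 (21 CpGs). The outermost start of Ikzf1 is not its most CpG-rich one. At the next start, 922 bp further in, the ratio was 0.98 with 144 CpGs, and at the last 3 of its 8 starts it was 0.18 to 0.20. Over the 8 starts of Ikzf4 the ratio ran from 0.27 to 0.46. Genes with H3K4me3 at a promoter had a median ratio of 0.74 (11848 genes) and genes without it one of 0.23 (10519 genes), so Ikzf2, which had H3K4me3, and Ikzf4, which did not, both lay between these medians.

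The family split into 3 promoter patterns. A promoter was taken as 1000 bp on either side of any annotated transcript start of the gene. Ikzf1, Ikzf3 and Ikzf5 had H3K27ac, H3K4me3 and Pax5 at a promoter, as did 34.9% of all protein-coding genes. Ikzf2 had H3K27ac and H3K4me3 without Pax5, the state of 10.9% of genes. Both of these calls were near a limit, since Ikzf2 had 0 promoter H3K27ac peaks in the higher-scoring 50% of the list, and the midpoint of its H3K4me3 region lay 1011 bp from the start, outside the promoter when midpoints were counted. Ikzf4 had none of the 3, the state of 43.4% of genes. By list, 4 of 5 members had promoter H3K27ac (background 49.0%), 4 of 5 had promoter H3K4me3 (background 53.0%) and 3 of 5 had promoter Pax5 (background 38.1%). With 5 genes, these counts describe the family and do not set it apart from other genes.

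**Figure D1:**
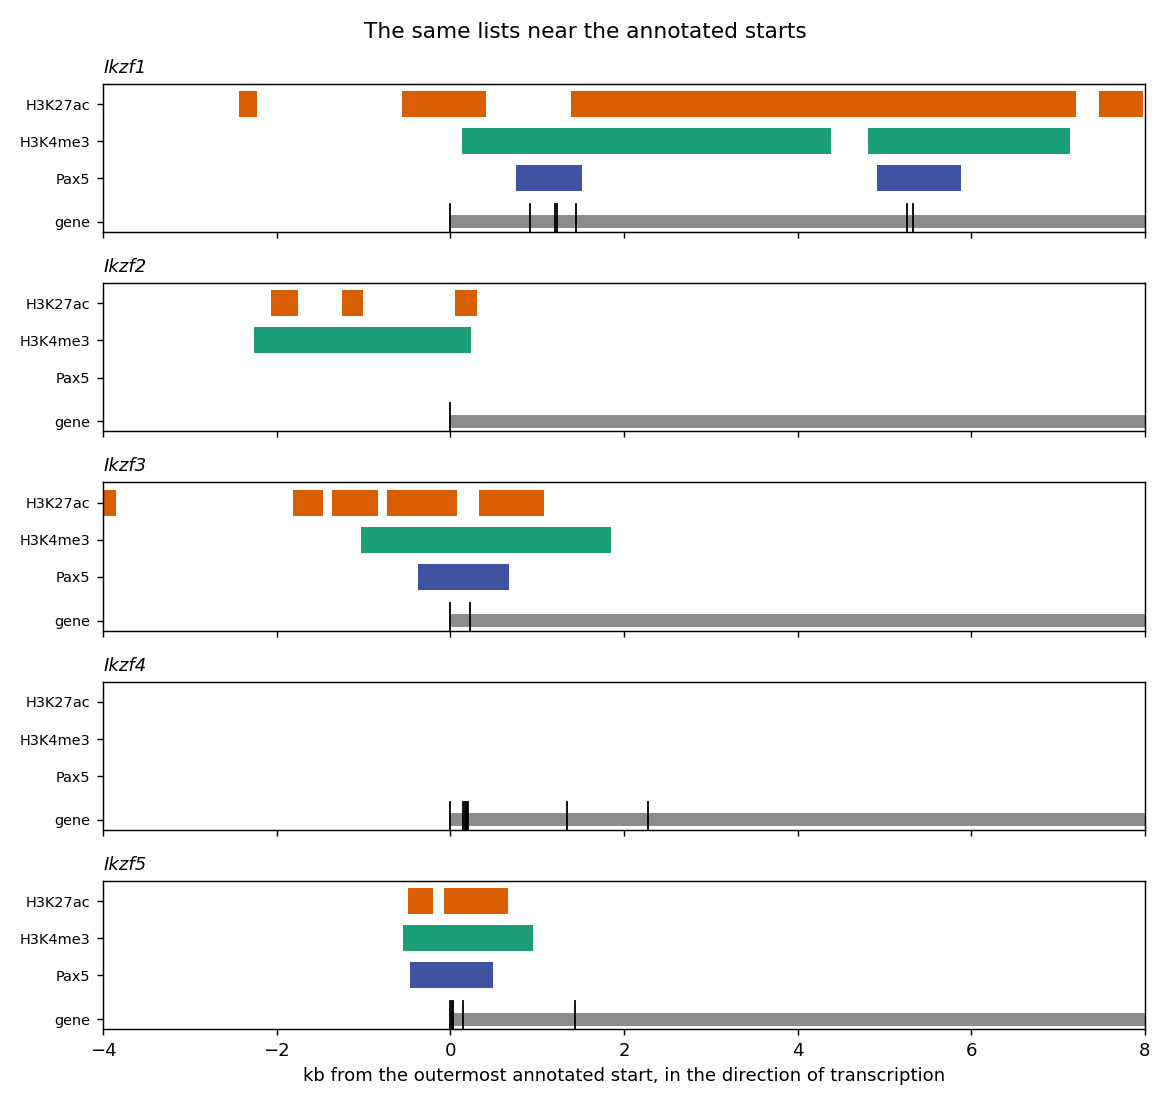
Peaks of H3K27ac (orange), regions of H3K4me3 (green) and peaks of Pax5 (blue) near the starts of each gene, with distance in kb from the outermost annotated start in the direction of transcription, annotated starts as black ticks and the gene body in grey. Ikzf1, Ikzf3 and Ikzf5 carry all 3 lists at a start, Ikzf2 carries 3 H3K27ac peaks and 1 H3K4me3 region without Pax5, and Ikzf4 is empty over the stretch drawn.

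Over the whole windows the 5 genes held 88 H3K27ac peaks, 12 H3K4me3 regions and 14 Pax5 peaks. Ikzf1 and Ikzf3 accounted for most of them, with 49 and 32 H3K27ac peaks, against 3 at Ikzf2, 2 at Ikzf4 and 2 at Ikzf5. The H3K27ac peaks covered 25.4% of the Ikzf1 window and 20.2% of the Ikzf3 window, but 2.62% at Ikzf4, 1.67% at Ikzf5 and 0.413% at Ikzf2. The Pax5 peaks numbered 7 at Ikzf3, 4 at Ikzf1, 2 at Ikzf5, 1 at Ikzf4 and 0 at Ikzf2, and covered 7.65%, 2.52%, 2.96%, 2.85% and 0% of the windows in that order. The H3K4me3 regions covered 5.53% of the window at Ikzf3, 5.14% at Ikzf1, 3.60% at Ikzf5, 3.35% at Ikzf4 and 1.28% at Ikzf2. At least 1 H3K27ac peak lay in the window of all 5 members (background 68.3%), at least 1 H3K4me3 region in all 5 (background 65.9%) and at least 1 Pax5 peak in 4 of 5 (background 58.2%). The median gene had 2 H3K27ac peaks, 1 H3K4me3 region and 1 Pax5 peak in such a window.

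**Figure D2:**
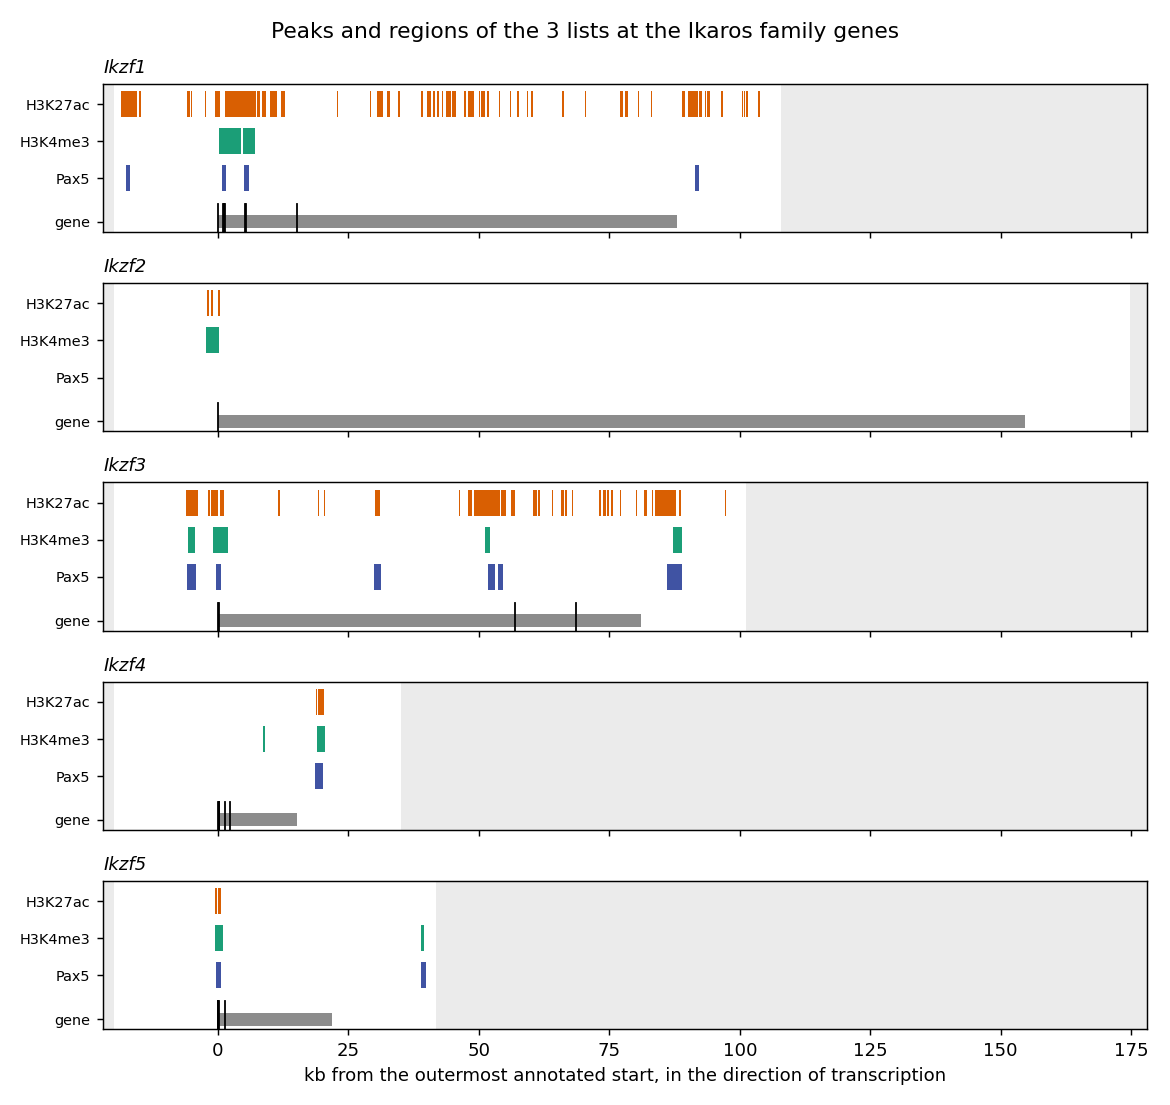
Every peak or region of the 3 lists over each gene body plus 20 kb on either side, with distance in kb from the outermost annotated start in the direction of transcription, the gene body in grey, annotated starts as black ticks and stretches outside the window shaded. H3K27ac is spread along Ikzf1 (49 peaks) and Ikzf3 (32 peaks), whereas the body of Ikzf2 is empty beyond its start and the signal at Ikzf4 lies almost wholly beyond its end.

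The peaks fell in different places for the 3 lists. Of the 88 H3K27ac peaks, 10 lay at a promoter of the member itself, 6 at the promoter of another gene, 4 in exons, 44 in introns, 8 in the upstream flank and 16 in the downstream flank. All 44 intronic H3K27ac peaks belonged to 2 genes, with 29 at Ikzf1 and 15 at Ikzf3. Of the 12 H3K4me3 regions, 5 lay at a promoter of the member, 3 at that of another gene, 3 in introns and 1 in a downstream flank. Of the 14 Pax5 peaks, 4 lay at a promoter of the member, 3 at that of another gene, 1 in an exon, 2 in introns, 1 in the upstream flank and 3 in the downstream flank. Ikzf3 was the 1 member of 5 with Pax5 on its body outside its promoters (background 11.0%). The share was 26.8% among protein-coding genes with a body of at least 50 kb, a class that holds Ikzf1, Ikzf2 and Ikzf3.

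**Figure D3:**
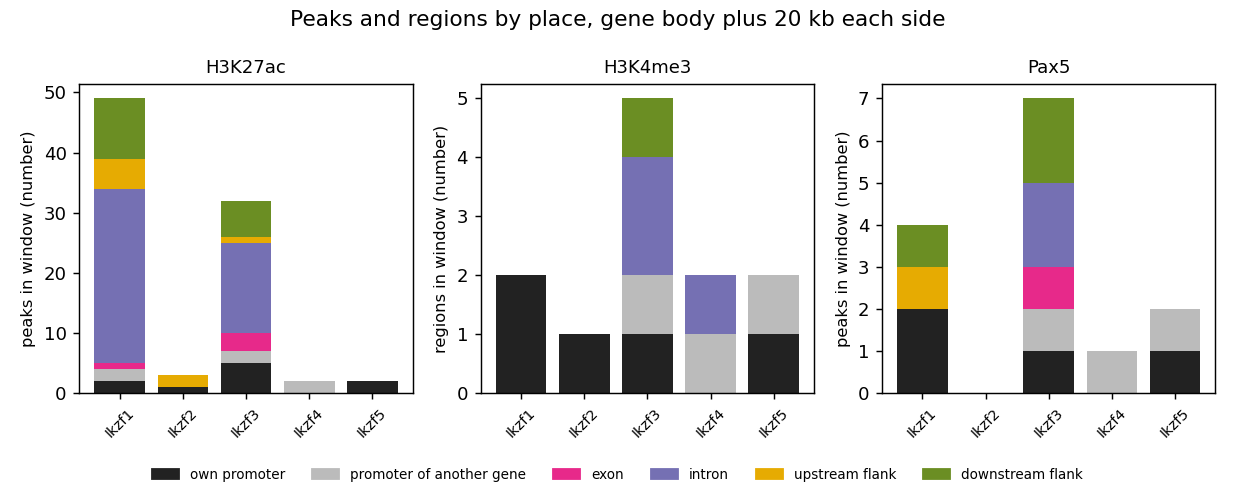
Number of peaks or regions in gene body plus 20 kb for each member and list, stacked by place. Introns (29 at Ikzf1 and 15 at Ikzf3) make up the largest part of H3K27ac, while the Pax5 peaks of Ikzf3 are spread over its own promoter, that of a neighbour, an exon, 2 intronic sites and 2 sites in the downstream flank.

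Ikzf1 and Ikzf3 were then set against the 4841 protein-coding genes whose body is at least 50 kb long, a class that also holds Ikzf2 and was chosen after the values were seen. These genes had a median of 3 H3K27ac peaks in their windows, and more than the 49 of Ikzf1 were found at 47 of them (0.971%), and more than the 32 of Ikzf3 at 142 (2.93%). By the share of the window covered, 0.826% of the long genes lay above Ikzf1 and 1.63% above Ikzf3, with a median of 1.29%. For Pax5 the order turned. More peaks than the 7 of Ikzf3 were found at 40 long genes (0.826%), and more than the 4 of Ikzf1 at 276 (5.70%), against a median of 1. By Pax5 coverage 0.331% of the long genes lay above Ikzf3 and 11.3% above Ikzf1. Of all long genes, 49.5% had more H3K27ac peaks than the 3 of Ikzf2 and 67.4% had a larger share of their window covered. Among the 2697 long genes with H3K27ac at a promoter, 73.4% had more peaks than Ikzf2 and 94.8% had a larger share covered. In this narrower class, 1.67% had more H3K27ac peaks than Ikzf1 and 4.97% had more than Ikzf3. For Pax5 peaks, 9.16% lay above Ikzf1 and 1.22% above Ikzf3. By Pax5 coverage, 18.5% lay above Ikzf1 and 0.445% above Ikzf3. Each of these shares was larger than among all long genes, so Ikzf1 and Ikzf3 stood out less here.

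Most of the many H3K27ac peaks were low in their list. At Ikzf1 scores ran from 4.14 to 58.6 with a median of 7.38, and 17 of 49 were in the higher-scoring 50% of the list. At Ikzf3 scores ran from 4.24 to 94.9 with a median of 8.16, and 13 of 32 were in that upper part. The same held for 1 of 3 peaks at Ikzf2, 1 of 2 at Ikzf4 and 2 of 2 at Ikzf5. The Pax5 peaks in the windows were higher placed, with 10 of 14 above the median of the list, a median of 378.3 and a range from 101.0 to 1157. Those above it comprised 3 of 4 at Ikzf1, 6 of 7 at Ikzf3, 0 of 1 at Ikzf4 and 1 of 2 at Ikzf5. Of the 14, 3 lay at starts of other genes, namely Zpbp2 (402.6), Rps26 (205.1) and Pstk (101.0).

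**Figure D4:**
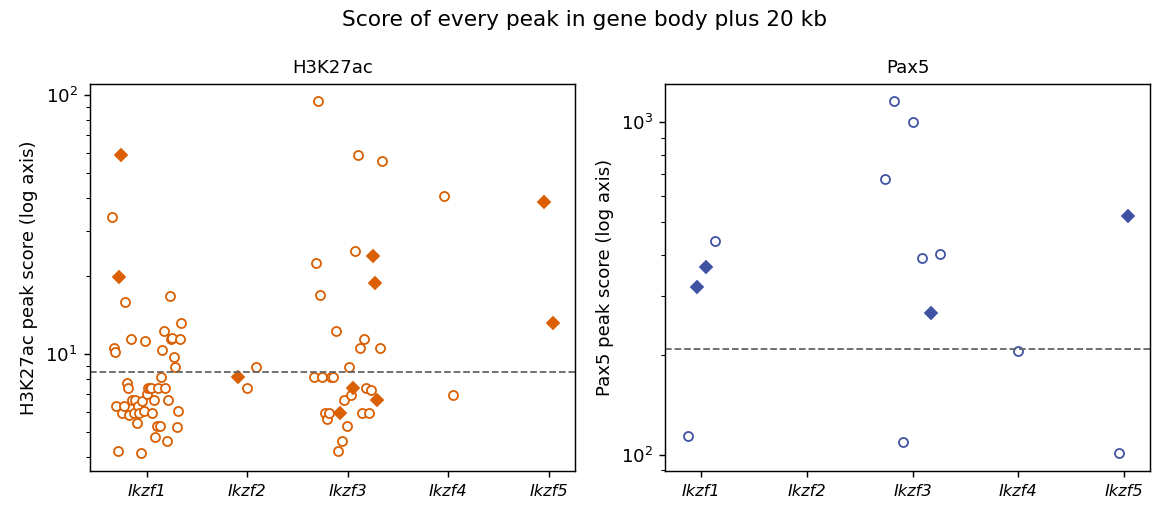
Score of each H3K27ac peak (left) and each Pax5 peak (right) in the windows on log axes, with filled diamonds for peaks at a promoter of the member, open circles for all others, and the median of the whole list as a dashed line. Most H3K27ac peaks of Ikzf1 and Ikzf3 lie below the dashed line at 8.52, while 10 of 14 Pax5 peaks lie above theirs at 207.5.

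Ikzf1, which encodes Ikaros, had both of its H3K4me3 regions, its widest H3K27ac peak and 2 of its 4 Pax5 peaks within 7213 bp of its outermost start. An H3K27ac peak of 967 bp (chr11:11584447-11585413, score 19.8) spanned the outermost start. A second one of 5829 bp (chr11:11586391-11592219, score 58.6) covered 3 of the later starts, and 0.255% of the list was wider and 4.33% scored higher. H3K4me3 formed a region of 4250 bp (chr11:11585146-11589395), with 0.562% of all regions wider, and another of 2325 bp (chr11:11589821-11592145), with 7.03% wider. Together these reached 7 of the 8 annotated starts, while the last start, 15216 bp inside the gene, had none of the 3 lists within 1000 bp. The lincRNA Gm11999 starts 397 bp inside Ikzf1 on the other strand. Both of these H3K27ac peaks, the first H3K4me3 region and the first Pax5 peak come within 1000 bp of its start. The second of the H3K27ac peaks covers no start of Gm11999 and has its midpoint 4.3 kb inside Ikzf1. The lists carry no strand, so within that 1000 bp the promoters of Gm11999 and Ikzf1 cannot be told apart. The second H3K4me3 region and the second Pax5 peak had no start of another gene within 1000 bp.

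Pax5 sat at 2 sites of the Ikzf1 promoter region. The first (chr11:11585763-11586525, score 320.3) had its midpoint 72 bp from an annotated start in the CpG-rich stretch, and the second (chr11:11589917-11590895, score 365.9) lay 71 bp from a start in the CpG-poor one, 5.40 kb from the outermost start. The other Pax5 peaks were distal. One of score 113.5 lay 17.3 kb upstream (chr11:11567350-11568057), inside an H3K27ac peak of 2963 bp and score 33.9 (chr11:11566502-11569464), the second highest of the gene. The highest Pax5 peak of Ikzf1 (chr11:11676510-11677287, score 439.9, with 20.3% of the list higher) lay 3.97 kb beyond the end of the gene and overlapped 2 H3K27ac peaks, of scores 16.7 and 11.4. H3K4me3 was found at neither distal site. Of the 10 H3K27ac peaks in the downstream flank of Ikzf1, the highest was the 1 of score 16.7 under this Pax5 peak.

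Along the rest of Ikzf1 the H3K27ac peaks were narrow and closely spaced. The median width of the 49 peaks was 388 bp, the median gap between neighbours 954.5 bp and the longest gap 9.97 kb. The body as a whole was covered to 25.3%, about as much as the window. None of the 29 intronic peaks overlapped Pax5 or H3K4me3. Another 2 peaks, of scores 15.9 and 7.76, lay at the start of Gm12000, a noncoding transcript inside Ikzf1 on the other strand.

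In the window of Ikzf3, which encodes Aiolos, the highest H3K27ac and Pax5 peaks lay away from its main promoter. At the promoter, 3 H3K27ac peaks of scores 24.0, 18.9 and 6.66 lay in a row from chr11:98406262 to chr11:98408713, with an H3K4me3 region of 2875 bp (chr11:98405496-98408370) and a Pax5 peak of score 266.9 (chr11:98406666-98407718). That region was wide, with 3.05% of all regions wider, but 38.7% of the Pax5 list scored higher. The further 2 promoter H3K27ac peaks, of scores 5.94 and 7.40, lay at the starts of noncoding transcripts 68628 bp and 57011 bp inside the gene, where neither H3K4me3 nor Pax5 was found.

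The highest H3K27ac and Pax5 peaks of all 5 windows lay together in the downstream flank of Ikzf3. The H3K27ac peak (chr11:98319554-98322586, 3033 bp) had a score of 94.9, with 1.34% of the list higher. Overlapping it were 2 adjoining Pax5 peaks. The one nearer the gene (chr11:98320029-98321343) had a score of 1157, with 2.92% of the list higher, and its midpoint lay 5.53 kb beyond the end of Ikzf3. Its neighbour (chr11:98318436-98320024) had a score of 677.5, with 9.68% higher. An H3K4me3 region of 1800 bp (chr11:98318421-98320220) overlapped both, although no transcript of any annotated gene starts within 1000 bp of it. The Grb7 start at the far edge of the window (chr11:98307708) had none of the 3 lists. A start that GENCODE M1 does not hold would be missed here, and which gene this site acts on was not tested.

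A second site of this kind lay in the intron between the third and the fourth exon of the coding Ikzf3 transcript. Its H3K27ac peak (chr11:98353247-98358248) was 5002 bp wide, with 0.479% of the list wider, and had a score of 58.7. It contained a Pax5 peak of score 1001 (chr11:98354246-98355556), with 4.21% of the list higher, 52.4 kb from the outermost start, and part of a lower one of score 109.0 (chr11:98352782-98353667). Small H3K4me3 regions of 675 bp and 25 bp lay in it as well. A further Pax5 peak, of score 390.7 (chr11:98376009-98377354), fell in the same intron of the coding transcript and in an exon of a noncoding one, over an H3K27ac peak of score 11.4. Ikzf3 was thus the member in which 6 of 7 Pax5 peaks lay outside its own promoter.

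Zpbp2, whose product is known from sperm, starts at -5066 bp from the outermost start of Ikzf3, where negative values are upstream, and runs on the other strand. Its start had an H3K27ac peak of score 55.6 (chr11:98411196-98413377), an H3K4me3 region of 1325 bp and a Pax5 peak of score 402.6 (chr11:98411551-98413314). All of these lie in the upstream flank of Ikzf3, and which of the genes they act on was not tested. The median gap between the 32 H3K27ac peaks of Ikzf3 was 991 bp, and the longest was 15.2 kb. Of these peaks, 1 of score 4.24 lay within 1000 bp of the start of the snRNA U2, inside Ikzf3, without H3K4me3 or Pax5.

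Ikzf2, which encodes Helios, had the longest body and, of the 5 members, the smallest share of its window covered in each of the 3 lists. Its 3 H3K27ac peaks (chr1:69732223-69732476, chr1:69733536-69733777 and chr1:69734291-69734598) had scores of 8.16, 7.38 and 8.93 and were 242 to 308 bp wide. The first lay at the start and the farthest had its midpoint at -1.91 kb, and all overlapped an H3K4me3 region of 2500 bp (chr1:69732296-69734795), with 5.24% of all regions wider. As joined here, the H3K4me3 region of Ikzf2 was wider than that of Ikzf5 (1500 bp). With bins joined only where they touch, it split into 4 regions, while Ikzf5 kept 1 at its promoter. The H3K27ac peaks of Ikzf2 scored lower than the 38.6 of Ikzf5. No Pax5 peak lay anywhere in the 194.7 kb, and no peak of any list lay in the body beyond the promoter. The GENCODE M1 annotation gives Ikzf2 1 transcript, so a start that it does not hold would be missed by the count of promoters, though not by the search of the window.

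Ikzf4, which encodes Eos, had no peak or region within 1000 bp of any of its 8 annotated starts. The only signal on its body was an H3K4me3 region of 250 bp (chr10:128074103-128074352) in an intron, 8.82 kb from the outermost start and without H3K27ac or Pax5. Everything else in the window lay at Rps26, which encodes a protein of the small ribosomal subunit and starts 19485 bp from the outermost Ikzf4 start, beyond the end of the gene. There, H3K27ac peaks had scores of 40.9 and 6.98, the Pax5 peak had a score of 205.1 and the H3K4me3 region was 1600 bp wide. The 1 Pax5 peak of the Ikzf4 window therefore was at the start of another gene. The lincRNA Gm17336 starts 107 bp inside Ikzf4 on the other strand, and Gm9182 starts in the downstream flank. Neither had any of the 3 lists within 1000 bp of a start.

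Ikzf5, which encodes Pegasus, had a compact promoter and nothing else on its body. The H3K27ac peaks of scores 38.6 (chr7:138553374-138554108) and 13.2 (chr7:138554230-138554525), of which the first spanned the start, lay within an H3K4me3 region of 1500 bp (chr7:138553080-138554579). A Pax5 peak of score 521.4 (chr7:138553543-138554503), with 15.5% of the list higher, had its midpoint 12 bp from the outermost start, and was the highest promoter Pax5 peak of the family. Acadsb, which encodes an acyl-CoA dehydrogenase, starts at -80 bp and runs the opposite way, so the promoter signals of this pair cannot be told apart. Near the far end of the downstream flank, the start of Pstk had an H3K4me3 region of 725 bp and a Pax5 peak of score 101.0. An Fgfr2 transcript that GENCODE M1 draws over 3.009 Mb also runs across Ikzf5.

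Where Pax5 was found in the windows, H3K27ac was usually found too, as over the whole list. H3K27ac overlapped 13 of the 14 Pax5 peaks (background over the whole list 79.3%), and H3K4me3 overlapped 10 (background 61.0%). At this overlap of at least 1 bp, the exception for H3K27ac was the peak at Pstk. The midpoint of the Pax5 peak lay in an H3K27ac peak for 9 of the 14, a count without a background here. The H3K4me3 exceptions were both distal peaks of Ikzf1 and the Pax5 peaks of scores 109.0 and 390.7 in the intron of Ikzf3. Peaks of 1 list near each other on a chromosome are not independent observations.

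The Pax5 peaks, and the H3K27ac peaks without Pax5, were searched over 1001 bp around their midpoints and on both strands. The words were GCGTGAC, the core of many Pax5 sites, and TGGGAA, the core of Ikaros sites. This stretch is often longer than the peak, as the median width was 965 bp for all Pax5 peaks and 428 bp for all H3K27ac peaks. A word given below as in a peak lay in this stretch, and not always within the peak itself. GCGTGAC was in 10.8% of all Pax5 peaks and in 2.03% of the 51993 H3K27ac peaks without Pax5, and in 1 of the 14 Pax5 peaks in the windows. TGGGAA, a shorter word, was in 56.1% of all Pax5 peaks, in 64.8% of H3K27ac peaks without Pax5, and in 11 of the 14. The stretch with GCGTGAC is shown with that of TGGGAA at the 3 highest-scoring distal peaks that hold it, 5′ to 3′ from mm9 with the word in capitals.
Ikzf3 downstream flank, Pax5 peak of score 677.5 (chr11:98319392-98319452, -): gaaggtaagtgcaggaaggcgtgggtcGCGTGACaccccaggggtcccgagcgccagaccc
Ikzf3 downstream flank, Pax5 peak of score 1157 (chr11:98320303-98320362, -): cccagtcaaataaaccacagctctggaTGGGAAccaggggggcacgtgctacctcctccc
Ikzf3 intron, Pax5 peak of score 1001 (chr11:98354662-98354721, +): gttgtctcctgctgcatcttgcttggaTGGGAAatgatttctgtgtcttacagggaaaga
Ikzf1 downstream flank, Pax5 peak of score 439.9 (chr11:11677062-11677121, -): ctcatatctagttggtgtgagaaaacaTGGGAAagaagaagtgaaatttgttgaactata
The GCGTGAC lay 192 bp from the midpoint of its peak. The TGGGAA words lay at -353, -209 and 194 bp, where negative values have the lower coordinate, so none of the 4 words was at a midpoint. The peak of score 1157 holds 2 such words, of which the farther one is shown. A match of letters does not show that a protein was bound there.

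The genes whose windows were most like those of a member were found from the length covered by each of the 3 lists, on a log10 scale, among 22362 genes outside the family. For Ikzf3, with 24.4 kb of H3K27ac, 6.70 kb of H3K4me3 and 9.26 kb of Pax5, they were Chst3 (23.8, 6.80 and 9.41 kb) and Rbm38 (25.1, 6.03 and 8.82 kb). For Ikzf1, with 32.4 kb, 6.58 kb and 3.23 kb, they were Ptk2b (33.5, 4.88 and 3.91 kb) and Med12l (29.8, 5.92 and 4.76 kb). For Ikzf5 they were Magi3 and Exoc8 at distances of 0.0164 and 0.0223. For Ikzf4 they were its neighbour Rps26, which shares the same peaks and so had a distance of 0, and Tmem209 at 0.0153. Ikzf2 was not compared because it had no Pax5 peak.

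Ikaros proteins work with subunits of NuRD and related complexes, and 16 of their genes were looked up. Of these, 14 had H3K27ac (background 49.0%), 15 had H3K4me3 (background 53.0%) and 11 had Pax5 (background 38.1%) at a promoter, and 11 had all 3 (background 34.9%). The background includes the 43.4% of genes with none of the 3 lists. Over all protein-coding genes, 7807 had all 3 and 2442 had both histone marks without Pax5, so most promoters with both marks also had Pax5. These counts therefore do not set the 16 genes apart from other genes with both marks. The NuRD subunits Mbd3 and Mta2 and the SWI/SNF ATPase Smarca4 had highest promoter Pax5 scores of 1845, 714.6 and 1182, above the 521.4 of Ikzf5. The rest of the 11 genes with promoter Pax5 had highest scores of 121.5 to 337.3, below that of Ikzf5. Chd4, the main NuRD ATPase, and Mta3 and Rbbp7 had both histone marks without Pax5 at the promoter, as Ikzf2 did. Mta1 had H3K4me3 only, and Gatad2b had none of the 3 lists, as Ikzf4 did. Within its window Mta3 held 47 H3K27ac peaks, close to the 49 of Ikzf1, and 1 Pax5 peak.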

How the data were processed

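The deposited lists of H3K27ac, Pax5 and H3K4me3 in pre-B cells come from 1 library each, so no test was possible. According to the submitters' processing notes, Bowtie 0.12.9, MACS 1.4.2 and mm9 were used, and the file of Pax5 peaks is named as called against input. The study's methods, which name another Bowtie version, state that duplicate reads were dropped and that a read could keep up to 3 equally good positions, so near-identical copies may share reads. The peak settings behind each list are not given in the sources used here. The score per peak in the H3K27ac and Pax5 lists is the authors' own number, on a scale that the deposited lists do not name. For H3K4me3 the deposited file holds other values, namely the positions of 25 bp bins, which were joined across gaps of up to 100 bp. All 21 chromosomes of the lists were found in NCBIM37 (mm9) and 0 peaks ended beyond them.

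The family and the gene lists were chosen with earlier results of these data known, and 1 marker gene of these lists is not reported here. A peak counted in a promoter or window at an overlap of 1 bp, was placed by the member's own promoter first, then that of another gene, then its midpoint, and had its distances taken from its midpoint. Single peaks were described where they lay at a promoter, were among the 3 highest by score (or width for H3K4me3) of a member, or were Pax5 peaks, and neighbours where they start in a window. Positions and sequences came from NCBIM37 and GENCODE M1. Python 3.11.15 and matplotlib 3.10.9 were used. The search for peaks within 1000 bp of a start and the joining of bins were tested on simulated data. The assignment to exon, intron, flank or another gene's promoter was not tested in this way. Other promoter sizes, flanks, overlaps, coding starts, higher-scoring lists and unjoined bins were the alternatives.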

Additional observations from a re-analysis of the deposited data

How the results depend on the processing

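Of 32 alternative counts over the 5 genes, 29 lay within 1.5 times the reported ones. H3K27ac peaks in the 5 windows fell from 88 to 34 in the higher-scoring 50% of the list, where Ikzf2 also lost its promoter H3K27ac (3 members in place of 4). H3K4me3 regions rose from 12 to 21 with flanks of 50 kb and to 20 with bins joined only where they touch. Members with promoter H3K4me3 were 3 when midpoints were used, without Ikzf2. Members with promoter Pax5 numbered 3 under each of the 5 alternatives run for that count. Depth is unknown and no target has a second library, so counts of peaks cannot be given an error. No paired analysis was possible because there is 1 library for each target.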
